A study of Mus musculus with 20 samples.

Results

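The transcripts of 10 E3 ubiquitin ligases linked to skeletal muscle atrophy were followed in the quadriceps of aged mice 3 h after 1 injection of a stem cell secretome or of saline. The genes were taken by symbol through their Ensembl identifiers and are 10 of the 55416 genes counted: Fbxo32, Trim63, Fbxo30, Traf6, Fbxo40, Fbxo21, Mul1, Nedd4, Stub1 and Cblb. All 10 had enough reads to be tested. None of the 10 passed a 5% false discovery rate between secretome-treated and control muscle, where 0.00691% of the 14471 genes tested did so. The smallest unadjusted p-values, 0.0297 for Fbxo30 and 0.0315 for Fbxo40, belonged to higher levels in secretome-treated muscle and missed the threshold after adjustment over all genes.

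The 20 libraries came from quadriceps of wild-type male C57BL/6J mice aged 26 to 28 months, with 10 muscles in each treatment. Controls received 50 µL of 0.9% saline into the muscle, and treated mice received 50 µL of the secretome, a cell-free product of medium conditioned by partially differentiated human embryonic stem cells and diluted in saline. All mice had been fasted for 4 h, and only 1 quadriceps was injected, so each library was taken as 1 mouse. Stranded total RNA libraries held between 13286983 and 22987237 reads counted on genes. The fast and the needle were common to both groups, and there was no uninjected or fed group in these libraries.

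Ubiquitin is passed from an activating enzyme (E1) to a conjugating enzyme (E2) and then, with the help of an E3 ligase that selects the substrate, to the protein to be degraded or redirected. In muscle, fasting, disuse, denervation and glucocorticoids raise a small group of ligases through FoxO transcription factors, and MAFbx (encoded by Fbxo32) and MuRF1 (encoded by Trim63) are the usual transcript markers of this programme. Fbxo32, Fbxo30, Fbxo40 and Fbxo21 encode F-box proteins, which present substrates to a cullin complex (SCF). Trim63, Traf6, Mul1 and Cblb encode RING ligases, Nedd4 a HECT ligase that carries ubiquitin itself, and Stub1 the U-box ligase CHIP, which works with heat shock proteins.

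The muscle identity of the samples was checked first. All 10 muscle fibre markers, among them Acta1, Ckm and Ttn, were found in every library, with a summed level of 1.45e+05 to 3.77e+05 CPM (normalised read counts scaled to a common library size) in control and 2.43e+05 to 3.53e+05 in secretome-treated muscle. The 6 lymphocyte markers were each at 0 in at least 1 library and none had enough reads to be tested. The 6 macrophage markers summed to 72.2 to 205 CPM in control and 42.8 to 164 CPM in secretome-treated muscle, all 6 were lower after secretome, and 4 of the 6 had an unadjusted p under 0.05, where 9.21% of all genes were lower at that level. All 5 adipocyte markers (median log2 difference -0.56), all 5 fibroblast markers (-0.36) and all 4 tested Schwann cell markers (-0.22) were also lower over all libraries, with 0 of them at an unadjusted p under 0.05. Their summed levels were 57.9 to 252 and 41.2 to 114 CPM for adipocytes, 171 to 934 and 259 to 572 CPM for fibroblasts, and 14.8 to 24.6 and 11.7 to 22.9 CPM for Schwann cells, in control and secretome-treated muscle. Of the endothelial markers 1 of 5 was higher, of the myoblast markers 1 of 4, and of the neutrophil markers 3 of 5. The muscle fibre markers were higher in 9 of 10 cases over all libraries (median 0.11), in 10 of 10 between libraries 16 to 20 and 1 to 5 (median 0.45, 4 with an unadjusted p under 0.05), and in 3 of 10 in libraries 6 to 15 (median -0.11). Within libraries 6 to 15 all 6 macrophage markers (median -0.75) and all 5 adipocyte markers (-0.46) were lower. There 2 of 5 fibroblast markers (median -0.12) and 1 of 4 Schwann cell markers (-0.20) were higher. At an unadjusted p under 0.05 in that range, 4 macrophage markers and 1 adipocyte marker were lower and 1 fibroblast marker was higher (4.92% and 5.02% of all genes). The part of these cell types in the values of the ligases was not tested. In whole muscle, fewer cells of a type and less RNA per cell cannot be told apart.

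The library numbers divide the samples unevenly between treatments. Libraries 1 to 5 were all controls, libraries 16 to 20 were all secretome-treated, and libraries 6 to 15 held 5 muscles of each. The share of reads on Ttn ranged from 7.02% to 11.03% in libraries 1 to 5, from 16.4% to 21.1% in libraries 6 to 15 and from 14.2% to 14.7% in libraries 16 to 20. For that reason each ligase was also compared within libraries 6 to 15, and the treatment difference there was tested against the difference between libraries 16 to 20 and 1 to 5. Outside libraries 6 to 15 the treatment and the library range cannot be told apart.

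The promoters of 2 ligases are shown because Trim63 and Fbxo40 are largely muscle-restricted genes and because the FoxO element is the best-known input to the atrophy programme. The sequences are the 250 bases before the RefSeq transcription start on GRCm38.p6, written 5′ to 3′ on the strand of the gene. Capitals mark the FoxO element TGTTTAC and the E-box CANNTG, the site of myogenic basic helix-loop-helix factors.
Trim63 (chr4:134314870-134315119, plus strand): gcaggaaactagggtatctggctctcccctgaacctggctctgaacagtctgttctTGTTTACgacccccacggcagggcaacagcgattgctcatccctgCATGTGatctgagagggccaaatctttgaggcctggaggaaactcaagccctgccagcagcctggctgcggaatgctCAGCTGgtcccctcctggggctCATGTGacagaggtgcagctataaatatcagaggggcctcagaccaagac
Fbxo40 (chr16:36990468-36990717, minus strand): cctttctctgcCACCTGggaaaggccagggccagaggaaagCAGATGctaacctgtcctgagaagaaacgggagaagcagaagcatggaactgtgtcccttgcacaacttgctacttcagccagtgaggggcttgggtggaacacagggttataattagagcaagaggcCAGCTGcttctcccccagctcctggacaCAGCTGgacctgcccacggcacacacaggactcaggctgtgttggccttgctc
The Trim63 window held 1 FoxO element, 194 to 188 bases before the start, and 3 E-boxes. The Fbxo40 window held 4 E-boxes and no FoxO element.

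RefSeq entries were found for 9 of the 10 ligases, with 11 windows in all; Fbxo32 had none. Searched on both strands, TGTTTAC was in 1 of the 11 windows and in 3.17% of all 32851 promoters. The E-box CANNTG was in 8 of 11 windows against 66.2% of all promoters. The palindromic glucocorticoid element was in 0 of 11 windows and in 0.00913% of all promoters. Its half-site TGTTCT, looked for only after the Trim63 sequence was seen, lay 200 to 195 bases before the Trim63 start, directly ahead of the FoxO element, and was in 3 of 11 windows against 16.1% of all promoters. These are matches of letters in a window, and binding was not measured.

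The ligases covered a wide range of expression. Levels were compared between genes as CPM per kilobase of exon, over all 20 mice. Trim63 had the highest mean level, 150 ± 55.7 CPM per kb (SD, n = 20), followed by Fbxo32 with 106 ± 32.6 and Fbxo40 with 85.9 ± 11.9. Both best-known atrophy ligases thus stood at the top of this order per kilobase in fasted aged muscle, and Fbxo40 came next. Nedd4 had 53.1 ± 7.40 CPM per kb, Stub1 18.9 ± 4.48 and Mul1 9.19 ± 2.07. Below them, Cblb with 5.68 ± 0.986 and Fbxo30 with 5.67 ± 1.20 lay together, as did Traf6 with 3.29 ± 0.299 and Fbxo21 with 3.23 ± 0.536 CPM per kb.

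The order depends on the exon length used, the union of all annotated exons, and counts of mice do not measure an error in that length. In CPM without it, Fbxo32 (740) and Nedd4 (582) stood above Fbxo40 (474) and Trim63 (426). Cblb (59.5) then stood above Stub1 (48.5) and Mul1 (36.7). Between mice, the order per kilobase was clear in its middle and unclear at its ends. Fbxo40 exceeded Nedd4, Nedd4 exceeded Stub1, Stub1 exceeded Mul1 and Fbxo30 exceeded Traf6 in 20 of 20 mice, and Mul1 exceeded Cblb in 19 of 20. Trim63 exceeded Fbxo32 in 17 of 20 mice and Fbxo32 exceeded Fbxo40 in 15 of 20. Cblb was above Fbxo30 in 8 of 20 mice and Traf6 above Fbxo21 in 11 of 20, so neither pair differed beyond its spread. Spread between mice was widest for Trim63, with a coefficient of variation of 37.1% and a 4.26-fold span of CPM from the lowest to the highest mouse. Traf6 was the steadiest of the 10 with 9.07% and a 1.43-fold span.

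**Figure D1:**
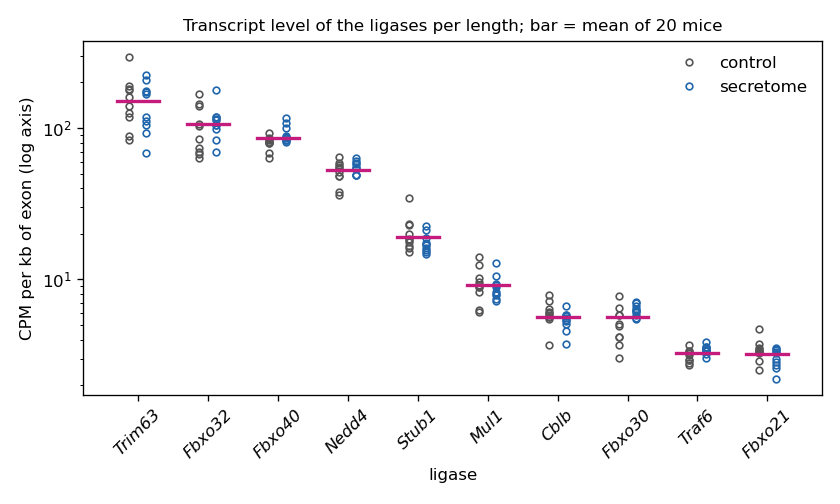
Level of the 10 ligases in CPM per kilobase of exon on a log axis, 1 circle per mouse (control grey, secretome blue), with a bar at the mean of 20 mice. Trim63 (150) and Fbxo32 (106) lead with wide scatter, while Fbxo40 (85.9) and Nedd4 (53.1) form narrow bands and Traf6 (3.29) and Fbxo21 (3.23) share the lowest level.

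Of the F-box ligases, Fbxo32 (chromosome 15, 58175879 to 58214932, GRCm38, minus strand) encodes MAFbx, whose known substrates include MyoD and the translation factor eIF3f. Its level in control muscle ranged from 440.3 to 1175 CPM with a median of 655, and in secretome-treated muscle from 484 to 1242 CPM with a median of 759. The groups overlapped over nearly their whole range. The mean was 713 ± 260 CPM in control and 767 ± 199 CPM in secretome-treated muscle (SD, n = 10 each), a log2 difference of 0.11 (SE 0.184; edgeR quasi-likelihood test, adjusted p = 0.801). The 95% interval of that difference ran from -0.27 to 0.49. Gm15943, a transcript on the opposite strand within this locus, had 3 to 24 counts, against 7087 to 21210 for Fbxo32.

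Within libraries 6 to 15 the control mice had 747, 470.3, 724, 1175 and 586 CPM of Fbxo32 and the treated mice had 686, 728, 796, 734 and 484 CPM. The highest control mouse, control 9, lay well above the treated mice. Treated minus control gave -0.10 on the log2 scale (SE 0.211, adjusted p = 0.880), and it was 0.13 without control 9. In libraries 16 to 20 against 1 to 5 it was 0.31. The direction of Fbxo32 therefore depended on which mice were compared.

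Fbxo30 (chromosome 10, 11281330 to 11298052, GRCm38, plus strand) encodes MUSA1, an F-box protein that is restrained by BMP signalling and induced by denervation. Control muscle ranged from 15.8 to 40.4 CPM with a median of 25.9, and secretome-treated muscle from 28.3 to 37.0 CPM with a median of 32.4. All 10 treated mice lay above the control median, while 1 control mouse lay above every treated one. The mean was 26.5 ± 7.38 CPM in control and 32.5 ± 2.86 CPM in secretome-treated muscle, which is 1.22-fold and a log2 difference of 0.29 (SE 0.126, 95% interval 0.03 to 0.55). The unadjusted p was 0.0297 and the adjusted p was 0.271, with 15.7% of all genes at an unadjusted p under 0.05.

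The treated mice were much alike in Fbxo30, with a coefficient of variation of 8.82% against 27.8% in controls. Within libraries 6 to 15 the control values of Fbxo30 were 21.6, 25.4, 19.3, 33.8 and 30.1 CPM and the treated values 31.5, 33.3, 28.3, 31.9 and 30.2 CPM. All 5 treated mice were above the control median. Control 9, at 33.8 CPM, lay above the treated mice, and control 10, at 30.1 CPM, lay within their range. Treated mice differed by 0.26 on the log2 scale (SE 0.138, unadjusted p = 0.0761, adjusted p = 0.541), and it was 0.33 in libraries 16 to 20 against 1 to 5. The 2 differences were of similar size, and the difference between them was -0.08 (95% interval -0.62 to 0.46, adjusted p = 0.946).

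Fbxo40 (chromosome 16, 36963460 to 36990467, GRCm38, minus strand) encodes a muscle-restricted F-box protein that targets the insulin receptor substrate IRS1. Its control values ranged from 349 to 511 CPM with a median of 448, and its treated values from 449 to 644 CPM with a median of 480.0. All 10 treated mice were above the control median and 3 of them were above every control mouse. The mean was 441 ± 47.0 CPM in control and 507 ± 66.8 CPM in secretome-treated muscle, which is 1.15-fold and a log2 difference of 0.20 (SE 0.0876, 95% interval 0.02 to 0.38). The unadjusted p was 0.0315 and the adjusted p was 0.274.

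The 3 highest values of Fbxo40 all came from libraries 16 to 20. Controls of libraries 6 to 15 had 466.1, 443, 458, 376 and 448 CPM and the treated mice 461, 462, 449, 489 and 477 CPM. The log2 difference there was 0.11 (SE 0.0938, unadjusted p = 0.279), against 0.30 in libraries 16 to 20 over 1 to 5. The difference between the 2 was not past the test (log2 -0.20, 95% interval -0.54 to 0.13, adjusted p = 0.680).

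Fbxo21 (chromosome 5, 117976730 to 118010201, GRCm38, plus strand) encodes the F-box protein SMART, which is required for denervation atrophy. It had 14.1 to 26.2 CPM in control (median 18.7) and 12.1 to 19.6 CPM in secretome-treated muscle (median 17.3), and the groups overlapped. The log2 difference was -0.18 (SE 0.103, adjusted p = 0.407). A log2 difference of -0.31 was found in libraries 6 to 15 (SE 0.146, unadjusted p = 0.0545, adjusted p = 0.513), where all 5 treated mice were below the control median. It was -0.03 in libraries 16 to 20 against 1 to 5.

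**Figure D2:**
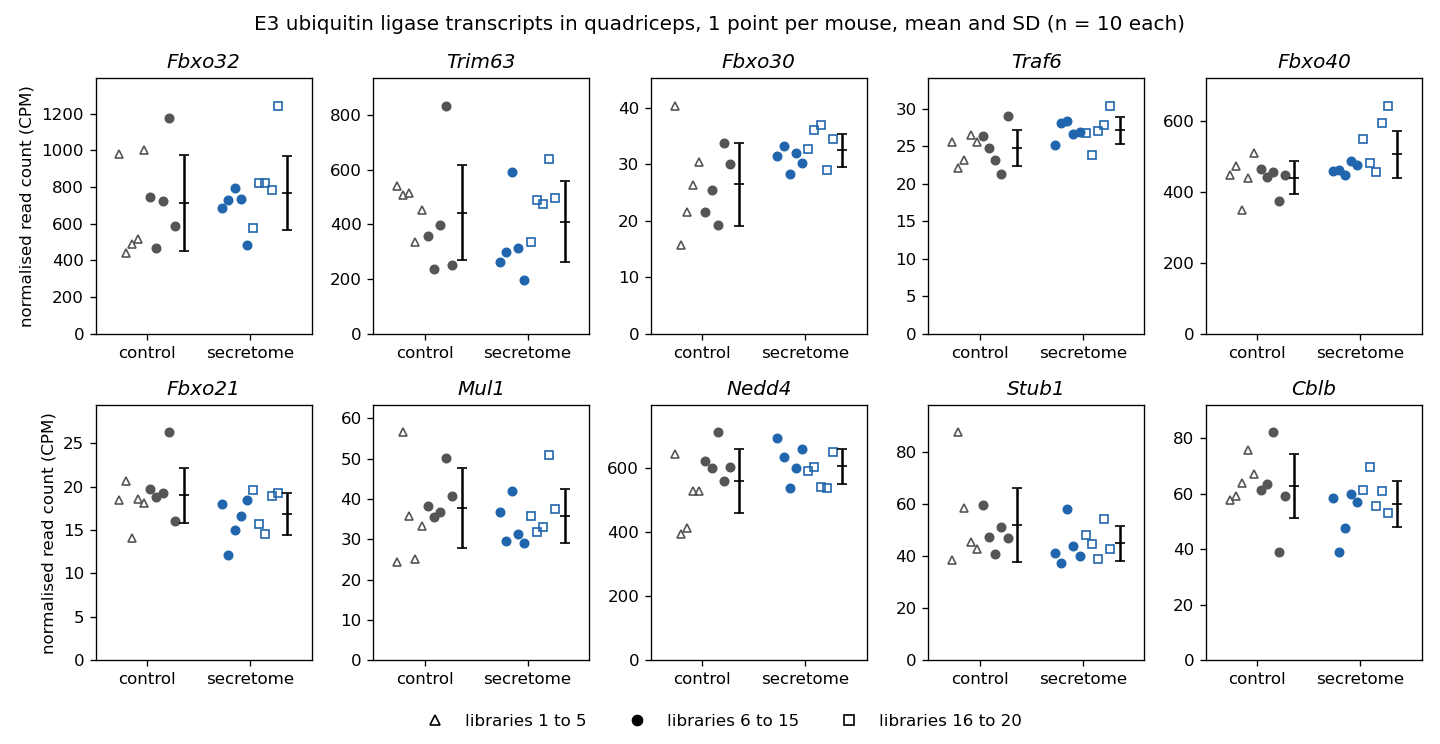
Normalised read count (CPM) of each ligase in every mouse, with mean and SD of 10 mice beside each group and symbols for the 3 ranges of library numbers. Treated mice sit above the control median in 10 of 10 cases for Fbxo30 and Fbxo40, and every panel shows overlapping groups.

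Among the RING ligases, Trim63 (chromosome 4, 134315120 to 134329629, GRCm38, plus strand) encodes MuRF1, which ubiquitinates myosin heavy chain and other thick filament proteins. Control muscle ranged from 235 to 834 CPM with a median of 426 and secretome-treated muscle from 196 to 640.4 CPM with a median of 405. Treated mice were spread evenly around the control median, with 5 of 10 below it. The mean was 443 ± 174 CPM in control and 410 ± 148 CPM in secretome-treated muscle (log2 difference -0.11, SE 0.225, adjusted p = 0.832). The 95% interval of the log2 difference, from -0.58 to 0.35, was the widest of the 10 ligases.

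Control 9 had the highest Trim63 level, and it also had the highest Fbxo32 level among the controls. In libraries 6 to 15 the controls had 357, 235, 398, 834 and 252 CPM of Trim63 and the treated mice 262, 299, 590.4, 314 and 196 CPM. Of the treated mice, 4 of 5 lay below the control median and secretome 3 lay apart above the rest. Trim63 differed by -0.31 on the log2 scale (SE 0.384, adjusted p = 0.783). The difference was 0.11 without control 9 and -0.63 without secretome 3, so single mice decided its direction and size.

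Traf6 (chromosome 2, 101678429 to 101701669, GRCm38, plus strand) encodes a ligase of non-degradative ubiquitin chains that acts in cytokine signalling and upstream of the FoxO programme. It ranged from 21.3 to 29.02 CPM in control (median 25.2) and from 23.8 to 30.4 CPM in secretome-treated muscle (median 27.0). The groups overlapped, with 9 of 10 treated mice above the control median. The mean was 24.8 ± 2.34 CPM in control and 27.1 ± 1.78 CPM in secretome-treated muscle (log2 difference 0.13, SE 0.0674, unadjusted p = 0.0654, adjusted p = 0.348). The log2 difference was 0.13 in libraries 6 to 15 and 0.15 in libraries 16 to 20 against 1 to 5.

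Mul1 (chromosome 4, 138434671 to 138442265, GRCm38, plus strand) encodes a ligase of the outer mitochondrial membrane that acts on mitofusin. Its range was 24.4 to 56.6 CPM in control and 29.01 to 51.1 CPM in secretome-treated muscle, with medians of 36.3 and 34.4. The log2 difference was -0.07 (SE 0.135, adjusted p = 0.819) over all mice and -0.25 (SE 0.126, unadjusted p = 0.0724) in libraries 6 to 15. Control 2 carried the highest value, and the difference over all mice was 0.01 without it.

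Cblb (chromosome 16, 52031225 to 52208048, GRCm38, plus strand) encodes a RING ligase that acts on IRS1 in unloaded muscle. It ranged from 38.8 to 82.1 CPM in control and from 39.0 to 69.6 CPM in secretome-treated muscle, with medians of 62.3 and 57.6. Of the treated mice 9 of 10 lay below the control median, and the treated range fell within the control range. Cblb differed by -0.16 on the log2 scale (SE 0.110, adjusted p = 0.482) over all mice and -0.21 (SE 0.176, adjusted p = 0.678) in libraries 6 to 15.

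The HECT ligase Nedd4 (chromosome 9, 72662346 to 72749852, GRCm38, plus strand), which acts on Notch1 and membrane proteins, was among the more abundant. Control muscle had 395 to 711 CPM (median 579) and secretome-treated muscle 538 to 693 CPM (median 602). The 4 lowest values were those of control mice in libraries 1 to 5. Nedd4 differed by 0.11 on the log2 scale (SE 0.09998, adjusted p = 0.602) over all mice and 0.03 (SE 0.106, adjusted p = 0.942) in libraries 6 to 15. The annotation holds 4 other genes within Nedd4 on the same strand, and the most counted of them, Gm36936, had 167 to 476 counts against 6361 to 13555 for Nedd4.

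Stub1 (chromosome 17, 25830505 to 25833404, GRCm38, minus strand) had 38.7 to 87.7 CPM in control (median 47.2) and 37.4 to 58.1 CPM in secretome-treated muscle (median 43.5). Control 2 stood apart from the other mice at 87.7 CPM. The log2 difference was -0.21 (SE 0.126, adjusted p = 0.425) over all mice, -0.15 (SE 0.130, adjusted p = 0.690) in libraries 6 to 15 and -0.09 over all mice without control 2. Jmjd8 overlaps Stub1 on the opposite strand with 70 to 198 counts, against 621 to 1412 for Stub1, and the strand setting of the read counting is not given in the sources used here.

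Over all 20 libraries 2 of the 10 ligases, Fbxo30 and Fbxo40, had an unadjusted p under 0.05, both higher, where 6.52% of all genes were higher and 9.21% lower at that level. With so few members, this count stands as a description. The median log2 difference of the 10 was 0.02, beside -0.03 over all genes tested, and 5 differences were positive and 5 negative. In libraries 6 to 15, 0 of 10 had an unadjusted p under 0.05 in the edgeR test (9.95% of all genes did, 5.02% higher and 4.92% lower), against 0 with DESeq2 and 2 without the filter on low counts. At the 5% false discovery rate 0% of genes passed in libraries 6 to 15, and 0 of the ligases had groups that did not overlap, as 1.91% of all genes had. The median log2 difference of the ligases was -0.12 there, beside -0.01 over all genes.

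The treatment difference was lower in libraries 6 to 15 than in the remaining libraries for 9 of the 10 ligases, with Stub1 as the exception. The tested difference between the 2 ran from -0.42 on the log2 scale for Fbxo32 to 0.09 for Stub1. None passed the 5% false discovery rate (adjusted p from 0.633 to 0.961), which 0.0553% of all genes passed. At an unadjusted p under 0.05 the count was 0 of 10, where 11.1% of all genes reached it, 5.59% higher and 5.51% lower. Between libraries 16 to 20 and 1 to 5, 0 of 10 had an unadjusted p under 0.05, where 16.1% of all genes did (6.53% higher and 9.56% lower), and 0% of genes passed the false discovery rate.

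**Figure D3:**
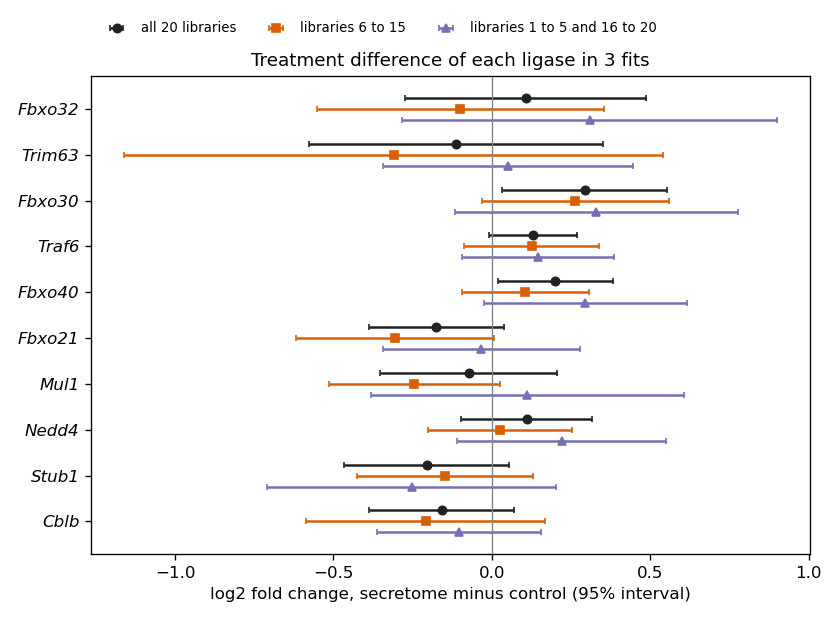
Log2 fold change of each ligase, secretome minus control, with 95% intervals, for all 20 libraries, libraries 6 to 15, and libraries 16 to 20 against 1 to 5. The intervals for Fbxo30 (0.03 to 0.55) and Fbxo40 (0.02 to 0.38) over all 20 libraries lie above 0, and every interval of the other comparisons includes 0.

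Several extreme values belonged to the same few mice. Control 2, the library with the fewest reads, was the lowest of all 20 mice in Fbxo32, Fbxo30 and Nedd4 and the highest in Mul1 and Stub1. Control 9 was highest in Trim63 and Fbxo21 and lowest in Traf6 and Cblb, and secretome 10 was highest in Fbxo32, Traf6 and Fbxo40. With control 2 and control 9 left out together, a choice made after these values were seen, the log2 difference of Trim63 was 0.09, that of Mul1 was 0.09, and that of Fbxo30 was 0.27 (unadjusted p = 0.0245, adjusted p = 0.358). The part of read depth in these values was not tested.

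Levels were next set against Rpl32, the ribosomal protein gene that served as the reference in the quantitative PCR of the study. By that PCR the paper reported MUSA1, Traf6 and FBXO32 as lower in the secretome-treated group after the single injection. The sequencing ratios given below were higher for Fbxo30, Traf6 and Fbxo32, and none passed the adjustment over all genes. The cause of the unlike direction was not tested. Rpl32 itself had 95.1 ± 20.6 CPM in control and 82.8 ± 10.9 CPM in secretome-treated muscle (log2 difference -0.20, SE 0.112, adjusted p = 0.388). On the log2 scale of the ratio to Rpl32, the median over 14372 genes was 0.16, and 74.5% of genes were positive, so each ligase is to be read against that shift.

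For Fbxo30 the log2 ratio to Rpl32 ranged from -2.42 to -1.49 in control and from -1.56 to -1.07 in secretome-treated muscle. The groups met only at their edges. The ratio differed by 0.52, the unadjusted p was 8e-05 in a two-sided permutation test with 1e+05 resamples and the adjusted p was 0.169 over all genes. It had the smallest p of the 14372 genes, of which 0% passed the 5% false discovery rate and 17.4% were higher at an unadjusted p under 0.05. Within libraries 6 to 15 the ratio differed by 0.37, and the 5 treated and 5 control ratios did not overlap (exact permutation p = 0.00794, the smallest that 5 against 5 allows), as was so for 0.932% of all genes. The nearest ratios of the 2 groups were -1.49 in a control and -1.48 in a treated mouse.

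The other ligases differed less on this scale. The log2 difference of the ratio was 0.38 for Fbxo40 (unadjusted permutation p = 0.0273), 0.31 for Traf6 (p = 0.0316, permutation), 0.31 for Nedd4 (p = 0.0601, permutation) and 0.33 for Fbxo32 (p = 0.130, permutation). Their adjusted p-values over all genes ran from 0.214 to 0.404. Trim63 differed by 0.07 and Mul1 by 0.13, below the median of all genes, and Cblb, Fbxo21 and Stub1 by 0.03, 0.01 and 0.00. The signs of Trim63, Mul1, Cblb, Fbxo21 and Stub1 were thus opposite to those in CPM.

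The supplement of the study gives quantitative PCR primers for MUSA1 (FBXO30) and for Traf6, and these were placed on the mouse transcripts to see which exons they read. The letters are printed as listed, in lower case. The supplement heads its reverse primers as 3′ to 5′, and both directions of primer were read here as 5′ to 3′.
MUSA1 (FBXO30) forward: tagtaaggctgttggagctgatag
MUSA1 (FBXO30) reverse: ctgcaccagtgtgcataagg
Traf6 forward: tgcaaaagatggaactgagacatc
Traf6 reverse: tgggacaatcctcaataatgtgtg
Among the 141767 GENCODE M21 transcripts, the first pair matched without mismatch in 1 transcript, a protein-coding transcript of Fbxo32. The forward primer spans exons 4 and 5 and the reverse primer lies in exon 6, all in coding sequence, and the product is 182 bases. Against the transcripts of Fbxo30 itself, the best placements had 9 mismatches for the forward and 8 for the reverse primer. The second pair matched Traf6, with a product of 132 bases over exons 4 and 5. This placement was added after the sequences were read. The sequencing counts of Fbxo30 and Fbxo32 do not rest on these primers.

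Whether the ligases varied together between mice was tested on log2 CPM after the mean of each of the 4 sets of 5 libraries had been removed. Over the 45 pairs, 25 correlations were positive and the median Pearson r was 0.05. At an unadjusted permutation p under 0.05 there were 6 pairs, and 3 pairs passed an adjustment over the 45 with Pearson's r and 0 with Spearman's rho. All 10 genes were read in the same libraries, so a library's composition enters every pair.

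Fbxo32 and Trim63 varied together between mice (n = 20, r = 0.62, permutation p = 0.00307, adjusted p = 0.0460; rho = 0.50, adjusted permutation p = 0.327). The r was 0.64 within controls, 0.61 within treated mice and 0.91 within libraries 6 to 15. Without control 9 and control 5, the mice farthest from the median of Fbxo32, it was 0.56. Mul1 and Stub1 correlated at r = 0.83 (permutation p = 0.00085, adjusted p = 0.0362; rho = 0.66, adjusted permutation p = 0.170). This r was 0.67 without control 2 and secretome 9 and 0.61 within libraries 6 to 15. Nedd4 and Stub1 ran in opposite directions (r = -0.78, permutation p = 0.00161, adjusted p = 0.0362; rho = -0.76, adjusted permutation p = 0.0819), with r = -0.64 without control 1 and control 2 and r = -0.71 within libraries 6 to 15.

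**Figure D4:**
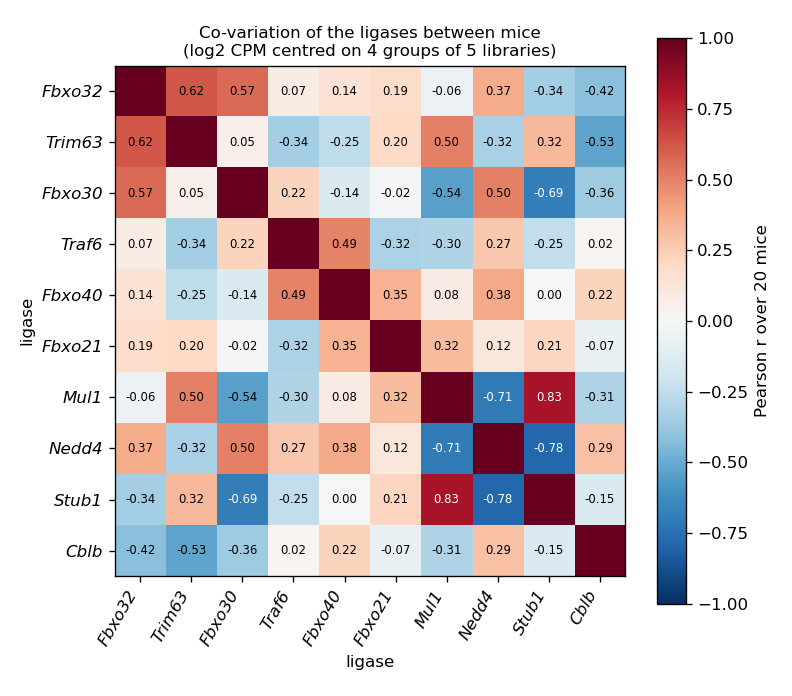
Pearson r between the ligases over 20 mice, from log2 CPM centred on the 4 sets of 5 libraries, with the value in each cell. Fbxo32 with Trim63 (0.62) and Mul1 with Stub1 (0.83) are the positive pairs past the adjustment, and Nedd4 with Stub1 (-0.78) is the negative one.

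The ligases also differed in how many other genes followed them. Counting genes with r above 0.8 over the same 20 mice, a description added after the data were seen, Mul1 had 459, Stub1 451 and Nedd4 157 of 14470 genes. Fbxo30 had 85, Fbxo40 26, Trim63 16, Traf6 15, Cblb 5, Fbxo32 3 and Fbxo21 0. The count of a typical gene is not given here, so none of these is called high or low. Control 2 was the highest mouse in Mul1 and Stub1 and the lowest in Nedd4, Fbxo30 and Fbxo32. Its part in these counts was not tested. The genes nearest to Fbxo32 were Gprasp1 (r = 0.86), Gemin5 (r = 0.86), the proteasome subunit gene Psmd7 (r = 0.81), Ap1ar (r = 0.79) and Pla2g7 (r = 0.79). Nearest to Trim63 were the chaperonin gene Cct6a (r = 0.88), Malsu1 (r = 0.85), Angel1 (r = 0.84), Triobp (r = 0.84) and Sqstm1, the autophagy receptor of ubiquitinated cargo (r = 0.82).

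The remaining ubiquitin pathway was read from 7 gene lists. No listed gene passed the 5% false discovery rate in edgeR, and the smallest adjusted p was 0.188, for Usp13. Of 29 upstream regulators, 2 had an unadjusted p under 0.05 over all 20 libraries, both higher, where 6.52% of all genes were higher. These were Nr3c1, the glucocorticoid receptor, with 111 ± 29.9 CPM in control and 142 ± 18.4 CPM in secretome-treated muscle (log2 difference 0.36, SE 0.138, adjusted p = 0.229), and Smad3, with a log2 difference of 0.30 (SE 0.133, adjusted p = 0.281). The log2 difference of Nr3c1 was also 0.36 in libraries 6 to 15, and that of Smad3 was -0.02. In those libraries 3 of the 29 were higher and 3 lower at an unadjusted p under 0.05 (5.02% and 4.92% of all genes).

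The FoxO genes, which drive Fbxo32 and Trim63 in fasting, differed in sign between the sets of libraries. Foxo1 had 68.0 ± 26.4 CPM in control and 72.8 ± 31.0 CPM in secretome-treated muscle, a log2 difference of 0.10 over all libraries, -0.43 in libraries 6 to 15 and 0.60 in the others. The difference between the sets was -1.05 (unadjusted p = 0.00938, adjusted p = 0.265). Foxo3 gave 0.04, -0.22 and 0.35 on the same log2 scale, with a difference between the sets of -0.58 (unadjusted p = 0.00361, adjusted p = 0.204). Of the glucocorticoid targets, Klf15 had a log2 difference of -0.07 over all libraries and -0.23 in libraries 6 to 15, and Cebpd -0.33 and -0.55, with adjusted p-values from 0.564 to 0.881. Fkbp5 and Ddit4, which glucocorticoids also induce and which were named here after their values were seen, had the opposite sign over all libraries. Fkbp5 had a log2 difference of 0.20 over all libraries, -0.59 in libraries 6 to 15 and 1.05 in the others, and the difference between the sets was -1.65 (unadjusted p = 0.000181, adjusted p = 0.129). Ddit4 gave 0.65, -0.41 and 1.56, with a difference between the sets of -1.99 (unadjusted p = 0.0259, adjusted p = 0.354). Of the 29 regulators, 8 had an unadjusted p under 0.05 for this difference, all lower in libraries 6 to 15, where 5.51% of all genes were.

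The enzymes that serve the ligases lay mostly on the positive side over all libraries, where 6387 of the 14471 genes tested were positive, 6.52% were higher and 9.21% lower at an unadjusted p under 0.05. Of 23 E1 and E2 genes, 21 had a positive log2 difference over all libraries, 4 were higher and 0 lower at an unadjusted p under 0.05, and the median was 0.11. Ube2d3, a general partner of RING ligases, had 224 ± 39.6 CPM in control and 268 ± 35.0 CPM in secretome-treated muscle (log2 difference 0.26, SE 0.107, adjusted p = 0.250), and its difference in libraries 6 to 15 was 0.30. Ube2e3 had a log2 difference of 0.19 (SE 0.0818, adjusted p = 0.270). Of the same 23 genes, 18 were positive in libraries 6 to 15, with 5 higher, 0 lower and a median of 0.14, against 6937 of 14469 genes positive, 5.02% higher and 4.92% lower.

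Of the 11 genes of the SCF core and its neddylation, 8 were positive with a median of 0.08. At an unadjusted p under 0.05, 1 was lower, where 9.21% of all genes were. That gene was Ube2m, the NEDD8 conjugating enzyme (log2 difference -0.30, SE 0.146, adjusted p = 0.313), while Cul1, the scaffold of the F-box ligases, had 0.26 (SE 0.151, adjusted p = 0.395). The median in libraries 6 to 15 was 0.09. The 4 ubiquitin genes had a median of 0.08 over all libraries and -0.21 in libraries 6 to 15. In libraries 6 to 15, 2 of the 4 were lower at an unadjusted p under 0.05, where 4.92% of all genes were. The lowest log2 difference there, of a gene not named here, was -0.39. The difference between the sets of libraries was lower at that level for 2 of the 4 (5.51% of all genes), down to -0.85. Named for their p over all libraries, Ubb had a log2 difference of 0.10 there and 0.05 in libraries 6 to 15, and Rps27a had -0.18 and -0.12.

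Among 33 further E3 ligases of muscle with enough reads, 28 were positive over all libraries, 9 were higher and 0 lower at an unadjusted p under 0.05 (6.52% and 9.21% of all genes), and the median was 0.13, beside -0.03 over all genes. Znrf2 had 36.1 ± 4.60 CPM in control and 41.6 ± 2.96 CPM in secretome-treated muscle (log2 difference 0.20, SE 0.0754, adjusted p = 0.211), and its difference in libraries 6 to 15 was 0.15. The list was balanced in libraries 6 to 15, with 2 higher, 2 lower (5.02% and 4.92% of all genes) and a median of 0.06. The median in libraries 16 to 20 against 1 to 5, where treatment and library range cannot be told apart, was 0.30.

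Of 21 deubiquitinases and ubiquitin-binding factors, 19 were positive, 5 were higher and 0 lower (6.52% and 9.21% of all genes), and the median was 0.16 over all libraries and 0.11 in libraries 6 to 15. Usp14, the deubiquitinase of the proteasome, had 44.5 ± 7.58 CPM in control and 53.3 ± 4.15 CPM in secretome-treated muscle (log2 difference 0.26, SE 0.0935, adjusted p = 0.205) and a difference of 0.27 in libraries 6 to 15 (adjusted p = 0.445). Usp13 had a log2 difference of 0.30 (SE 0.102, adjusted p = 0.188) over all libraries and 0.11 in libraries 6 to 15. Usp14 was also among the 5 genes nearest to Fbxo30 between mice (r = 0.90).

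Of 32 substrates and partners, 2 were higher and 0 lower at an unadjusted p under 0.05 over all libraries (6.52% and 9.21% of all genes). Their median log2 difference was 0.08. In libraries 6 to 15, 0 were higher and 3 lower (5.02% and 4.92% of all genes), with a median of -0.07. The 3 were Eif3f and, named after their values were seen, the intermediate filament genes Des (-0.39, adjusted p = 0.470) and Vim (-0.38, adjusted p = 0.434). Dnm1l, which encodes the mitochondrial fission protein and is a Mul1 partner, had a log2 difference of 0.33 over all libraries (SE 0.151, adjusted p = 0.294) and 0.29 in libraries 6 to 15. The mitofusin gene Mfn2 had 0.26 (SE 0.121, adjusted p = 0.304) and -0.02. Irs1, a target of Fbxo40 and Cblb, had 0.20 and 0.24. Eif3f, a target of Fbxo32, had -0.12 and -0.20, and Bag3, the co-chaperone that works with Stub1, had 0.01 and -0.06.

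**Figure D5:**
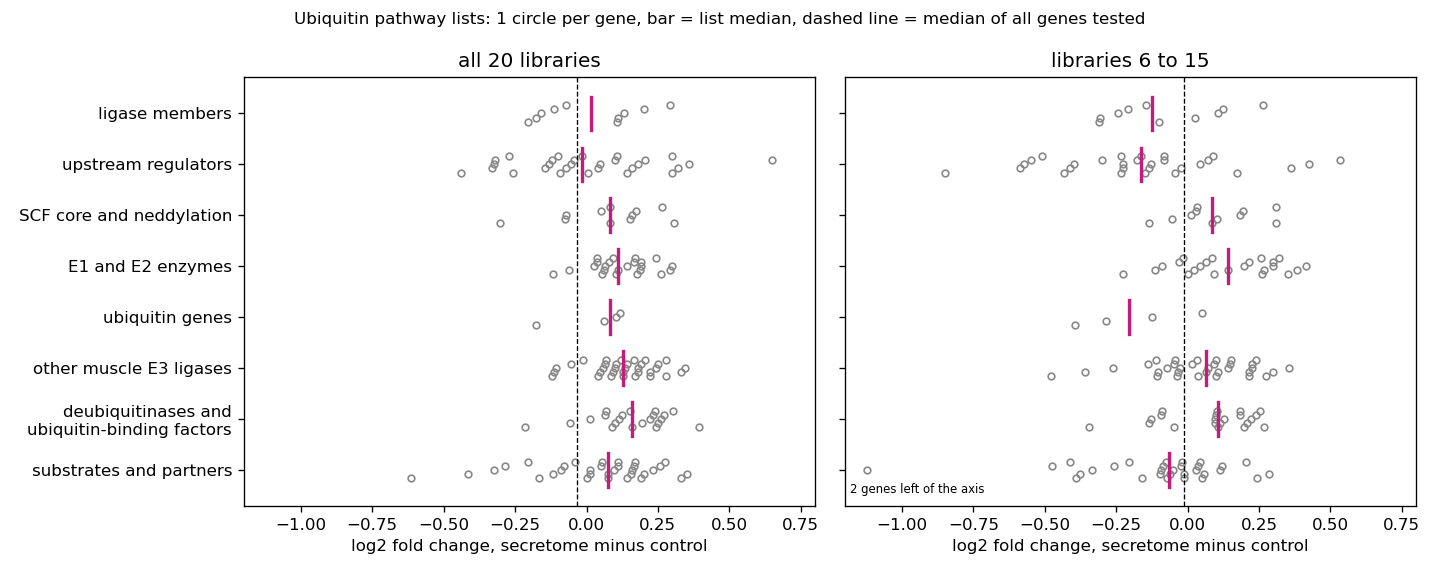
Log2 fold change, secretome minus control, of each gene in the ligase set and 7 ubiquitin pathway lists, with a bar at the list median and a dashed line at the median of all genes tested. The bars of E1 and E2 enzymes (0.11 and 0.14) and deubiquitinases (0.16 and 0.11) lie right of the dashed line in both panels, while that of the ligases (0.02 and -0.12) changes side; 2 genes lie left of the right-hand axis.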

How the data were processed

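The authors deposited whole-number read counts per gene and muscle, without normalization, and per the submitters' processing notes used cutadapt 1.16, STAR 2.7.9a, featureCounts 1.6.3 and DESeq2 1.34.0 with GRCm39. The strand setting of the counting is not given in the sources used here. The labels name the tissue as quadriceps, while their extraction text speaks of myotubes. Groups came from the labels, 0 pairs of columns were identical, and 0 columns were left unused. Symbols, exon lengths and coordinates came from GENCODE M21 (GRCm38), and promoters from RefSeq (GRCm38.p6). No coordinate was converted between builds.

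Genes were filtered with filterByExpr, normalized with TMM and tested with the robust quasi-likelihood F-test of edgeR 4.0.16 in R 4.3.3, with no term beyond the treatment. P-values were adjusted by Benjamini-Hochberg over all genes tested (14471 over all libraries and 14469 in libraries 6 to 15) at a 5% false discovery rate. CPM are counts scaled to a common library size after TMM, and log2 CPM used a prior count of 2. Correlations and ratios to Rpl32 were tested by two-sided permutation with 1e+05 resamples, or exactly for 5 against 5. The ratios were adjusted over all 14372 genes and not, as first written down, over the ligases alone. P-values measure the spread between these muscles.

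The genes named are the 10 ligases, the 2 lowest-p genes from every pathway list, Foxo1, Foxo3, Klf15, Cebpd, Irs1, Eif3f, Mfn2, Bag3 and Rpl32, and the 5 genes most like Fbxo32 and Trim63. Some genes of the lists are not reported here. The overlapping genes Gm15943, Gm36936 and Jmjd8 and the link of Usp14 to Fbxo30 were chosen after their values were seen. The ligases and gene lists were chosen with earlier results of these data known. DESeq2 1.42.0, limma 3.58.1 (voom), RLE normalization, no filter, a replicate block, the library ranges as a term and each mouse left out were tried as alternatives. In simulated counts over all libraries, 177 of 200 genes changed by 2-fold were recovered with 10 false calls, and 0 calls were made with no gene changed. In libraries 6 to 15 the same test recovered 135 of 200 with 6 false calls, and 0 with no gene changed. The simulated counts held no difference between library ranges. Changes as small as those of the ligases (1.22-fold for Fbxo30 over all libraries) were not simulated, so recovery at that size is not known.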

Additional observations from a re-analysis of the deposited data

Results flagged for a closer look

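In 20 groups of 10 mice tested, 10 ligases in each treatment, 2 single values stood apart from their group by Dixon's criterion, and chance flags about 1 in 20 groups. Stub1 in control 2 had a log2 CPM of 6.46, and the next control mouse had 5.90, a gap of 0.468 of the range of the group. Cblb in control 9 had a log2 CPM of 5.28, below the next control mouse at 5.85, a gap of 0.527 of the range. Control 2 was also the library with the fewest reads, 13286983. The part of depth in its values was not tested.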

How the results depend on the processing

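The count of ligases past the 5% false discovery rate was 0 under each alternative run, which were DESeq2, RLE, no filter, the replicate block, voom with quality weights, the library ranges as a term, mice left out singly and controls 2 and 9 left out together. Over all libraries the number of genes past the false discovery rate was 1 with edgeR, 216 with DESeq2, 3 with voom, 0 with the replicate block, 0 with the 3 library ranges as a term, and 3 without control replicates 2 and 9. With 1 mouse left out it ran from 0 to 15, the latter without control 5. The number of ligases with an unadjusted p under 0.05 was 2, and 1 with the replicate block, 1 with voom, 1 with the library ranges as a term, and 1 to 3 with 1 mouse left out. The ligases counted were not the same under every alternative. Across the alternatives the unadjusted p rose to 0.184 for Fbxo30 and to 0.417 for Fbxo40. That of Fbxo21 fell to 0.0376, and its log2 difference ran from -0.319 to 0.00800. Fbxo30 had an unadjusted p under 0.05 in 15 of 20 fits with 1 mouse left out (log2 difference 0.23 to 0.38, p from 0.00303 to 0.0574), and so had Fbxo40 in 15 of 20 (0.16 to 0.23, p from 0.0189 to 0.0754). In libraries 6 to 15 the genes past the false discovery rate numbered 0, 37 with DESeq2, 11 without the filter and 0 to 2 with 1 mouse left out. The ligases with an unadjusted p under 0.05 numbered 0 there, 2 without the filter (Fbxo21 and Mul1) and 0 to 2 with 1 mouse left out. The difference between library sets gave 8 genes, and 8 with RLE, and 3 pairs of ligases passed with Pearson's r under the main scale, RLE and a prior count of 0.5, while 0 passed with Spearman's rho under the main scale. Signs turned over all libraries for Fbxo32 with the library ranges as a term (-0.111). With that term the treatment difference rests on libraries 6 to 15, as the other ranges hold a single treatment each. Signs also turned for Trim63 (0.0872) and Mul1 (0.0869) without controls 2 and 9. In the ratio to Rpl32 they turned for Trim63 (0.0691), Mul1 (0.132), Cblb (0.0297), Fbxo21 (0.00800) and Stub1 (0.00120). With 1 mouse left out, the log2 difference ran from -0.206 to 0.0361 for Trim63 (positive without control 9) and from -0.142 to 0.0105 for Mul1 (positive without control 2). In libraries 6 to 15 it ran from -0.225 to 0.129 for Fbxo32 (positive without control 9 and, at 0.00224, without secretome 5), from -0.632 to 0.107 for Trim63 (positive without control 9) and from -0.0140 to 0.0825 for Nedd4 (negative without secretome 1 and, at -0.00826, without control 9). The cause was not tested. Replicate numbers only name the mice: same-numbered mice correlated from -0.24 to 0.22 and 2 of 10 pairs exceeded 0.1, so the replicate block was no pairing. The 10 ligases had from 226 counts (Fbxo21) to 21210 counts (Fbxo32) in a library. The 95% interval of Trim63 left differences from -0.58 to 0.35 on the log2 scale possible.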
